A study of Mus musculus with 4 samples.

Results

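The nuclear genes of oxidative phosphorylation (OXPHOS) were followed in the small intestine (SI) of irradiated p53+/+ and p53-/- mice. They were taken by symbol from the deposited gene count table, as every gene whose name starts with Nduf, Uqcr, Cox4i, Cox5, Cox6, Cox7, Cox8 or Atp5, together with Sdha, Sdhb, Sdhc and Sdhd, and 15 names with -ps (pseudogenes) were left out. This rule took 100 of 56748 genes, of which 92 belong to the families of complexes I to V and 8 are Ndufaf assembly factors of complex I, and it used no measured value. A filter on low counts kept 90 of these members among 16094 genes tested. Of the other 10 members, 5 had no read in any library and 5 reached at most 16 counts in a library.

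Respiratory chain complexes I, III and IV pump protons across the inner mitochondrial membrane as electrons pass from NADH to oxygen, complex II feeds electrons from succinate into the same chain, and complex V (ATP synthase) uses the proton gradient to make ATP. All of complex II is encoded in the nucleus, while complexes I, III, IV and V combine nuclear subunits with subunits encoded by mitochondrial DNA (mtDNA). The absorptive epithelium of the SI is rich in mitochondria, and p53 is known to act on respiration through targets such as Sco2, a copper chaperone needed to assemble complex IV.

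RNA-seq of the SI was made at day 1 after 12 Gy total body irradiation (TBI) from a Cs-137 source, with 2 libraries from p53+/+ mice (labelled WT) and 2 from p53-/- mice, in which the gene for p53 is disrupted in all cells. All mice were adults and all were irradiated, so the genotypes were compared only after TBI, and the effect of TBI itself was not measured. The libraries are called 7 and 8 (p53+/+) and 9 and 10 (p53-/-), by the numbers in the table's column names, and held 15005479 to 22173164 counts each. The labels give the replicates of a genotype without saying that each is a separate mouse, so the p-values measure the spread between these libraries.

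Trp53, the gene that encodes p53, had 57.7 and 47.1 CPM (read counts scaled to library size) in p53+/+ libraries 7 and 8, and 19.8 and 22.5 in p53-/- libraries 9 and 10. Its log2 fold change (p53-/- minus p53+/+) was −1.31 ± 0.19 (SE), with an adjusted p of 0.0602 by the quasi-likelihood test of edgeR. Phlda3, a p53 target that restrains Akt, had 87.3 and 91.9 CPM against 1.93 and 1.54, with a log2 fold change of −5.68 and an adjusted p of 0.00566. The epithelial markers summed to 15350 to 27441 CPM, so the tissue held abundant epithelium in every library. Libraries of the same genotype also differed in their other cells and in RNA composition. Smooth muscle markers summed to 754 CPM in library 7 and 5842 in library 8, against 1472 and 1020 in libraries 9 and 10, and all 10, among them Myh11 (110 against 1136 CPM), were lower in library 7 than in library 8. B cell markers summed to 2.29 and 3.05 CPM in libraries 7 and 8, 28.8 in library 9 and 580 in library 10, and library 10 also carried 4.59% of its counts on the ribosomal RNA gene Rn18s-rs5, against 0.296% to 0.863% in the others. Xist, the RNA that silences an X chromosome in female cells, had 2, 0 and 4 counts in libraries 7, 8 and 9 and 588 in library 10, so library 10 differed from the other 3 in this marker of sex. Their part in the levels of the OXPHOS genes was not tested. In RNA from a whole tissue, fewer cells of a type and less RNA per cell cannot be told apart.

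Promoters of 3 members are shown because Sdhb carries a motif found in many genes of respiration, and because Cox6b1 and Cox6b2, the ubiquitous and the testis form of the same complex IV subunit, stood near opposite ends of the range of genotype differences in complex IV. Each sequence is the 250 bases before the transcription start, 5′ to 3′ on the gene's own strand, from RefSeq on GRCm38.p6. The Sdhb window (the iron-sulfur subunit of complex II) is chr4:140961021-140961270 on the plus strand, that of Cox6b1 is chr7:30626115-30626364 on the minus strand, and that of Cox6b2 is chr7:4753095-4753344 on the minus strand. Capitals mark GCATGCGC, the core of the site of nuclear respiratory factor 1 (NRF1), in Sdhb, and CGGAAG (the core read by ETS factors such as GABPA) and CCAAT, or their reverse complements CTTCCG and ATTGG, in the Cox6b genes.
Sdhb: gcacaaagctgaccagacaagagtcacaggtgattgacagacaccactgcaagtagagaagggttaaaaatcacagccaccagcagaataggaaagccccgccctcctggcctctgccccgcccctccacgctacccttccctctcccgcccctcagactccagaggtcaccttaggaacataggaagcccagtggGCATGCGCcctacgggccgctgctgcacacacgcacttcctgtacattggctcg
Cox6b1: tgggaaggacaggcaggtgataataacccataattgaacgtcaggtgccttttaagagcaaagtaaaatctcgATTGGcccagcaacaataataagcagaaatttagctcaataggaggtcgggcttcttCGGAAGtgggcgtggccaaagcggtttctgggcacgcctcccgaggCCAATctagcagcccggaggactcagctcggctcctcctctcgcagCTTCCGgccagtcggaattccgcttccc
Cox6b2: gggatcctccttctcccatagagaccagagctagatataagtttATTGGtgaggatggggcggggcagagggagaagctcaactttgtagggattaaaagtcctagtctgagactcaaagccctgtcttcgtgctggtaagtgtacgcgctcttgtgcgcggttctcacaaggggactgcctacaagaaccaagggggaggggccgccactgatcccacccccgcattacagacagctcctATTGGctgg
Promoters of 77 member symbols (82 windows) were matched by symbol, and motifs were searched on both strands of the same 250 bases in these and in all 32851 windows of the table. GCATGCGC was in 11% of the members' windows and 2.26% of all windows. CGGAAG was in 35.4% against 13.6%, CCAAT in 42.7% against 33.8%, TATAAA in 9.76% against 12.4% and AAGATGGC, the letters of a YY1 site, in 1.22% against 1.56%. The Cox6b1 window held CGGAAG at 2 places and CCAAT at 2, whereas the Cox6b2 window held CCAAT at 2 places and CGGAAG at none. A match of letters is a description of the window, not a measured binding site.

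As a family the nuclear OXPHOS genes were close to level between genotypes. No member passed an adjusted p of 0.05 in either direction by the quasi-likelihood test, against 0.298% of all genes tested that were higher in p53-/- and 0.193% that were lower. The median log2 fold change of the 90 members was −0.09, against −0.01 for all genes tested. The middle 50% of members lay between −0.20 and −0.005, a narrower band than the −0.33 to 0.39 of all genes. The median SE was also smaller for the members (0.24) than for all genes tested (0.30). Comparisons with all genes in this paragraph were not matched for expression level. Of the 90 members 21 had a positive and 69 a negative log2 fold change, and this split depended on the scaling, since 40 were positive and 50 negative with library sizes alone. At an unadjusted p under 0.05 no member was higher, where 10% of all genes were, and 3 members (3.33%) were lower, where 7.92% were. Both p53-/- libraries lay below both p53+/+ libraries for 10 members (11.1%) and above them for 0 members, while 24.4% and 26.4% of all genes separated in these ways. DESeq2 (adjusted p under 0.05) called no member higher and 1 lower, Cox6b2, beside 5.05% of all genes called higher and 4.12% called lower.

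The precision of these libraries limits how flat the family can be said to be. The 95% interval of the log2 fold change held 0 for 87 of 90 members and lay wholly between −1 and 1 for 81 of them, with a median half-width of 0.593. For 8 members the interval reached below −1 and for 3 it reached above 1. Among the 84 members with a mean of at least 10 CPM, 79 had an interval within −1 to 1, so a doubling or halving between genotypes lay outside the interval for most well-expressed members, and smaller changes were not resolved with 2 libraries a genotype.

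**Figure D1:**
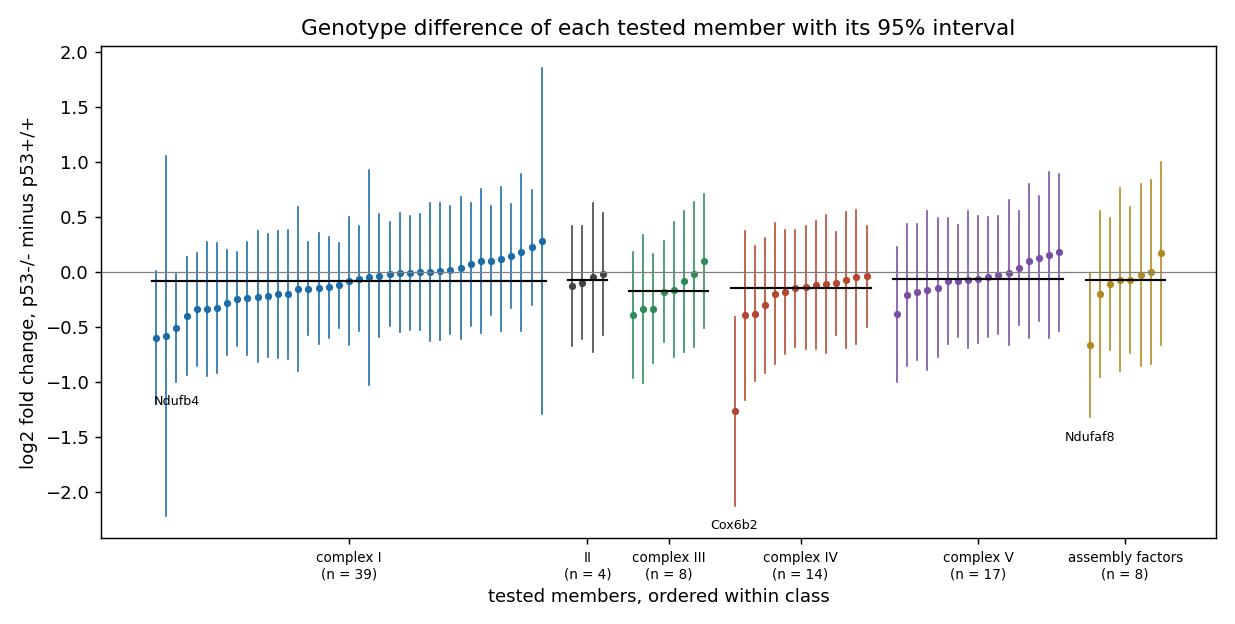
Log2 fold change (p53-/- minus p53+/+, points) of the 90 tested members with 95% intervals (lines), ordered within class, and the median of each class (black line). The intervals of Cox6b2, Ndufb4 and Ndufaf8 lie below 0 and the other 87 hold 0.

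The OXPHOS genes instead varied together from library to library within a genotype. All 100 members together summed to 15433 CPM in library 7, 11450 in library 8, 11839 in library 9 and 12932 in library 10. The p53+/+ libraries therefore enclosed both p53-/- libraries, with 13442 ± 2817 CPM (SD, n = 2) in p53+/+ and 12385 ± 772 in p53-/-. Library 7 was above library 8 for 89 of 90 members, with a median log2 difference of 0.42. Over all genes tested it was above library 8 for 8860 of 16094, with a median difference of 0.06. The shift was not particular to the members. It was also seen in 16 of 16 citric acid cycle genes, 76 of 77 of the mitochondrial ribosome and 24 of 25 of mitochondrial import and membranes. Library 7 was above library 8 for 12 of 13 epithelial markers and 17 of 17 proliferation genes, but for 0 of 10 smooth muscle and 2 of 13 T cell markers. Library 10 was above library 9 for 70 of 90 members, by a median of 0.24, against 8233 of 16094 genes and a median of 0.01. Library 7 held the highest value of the 4 for 67 of 90 members, and the value of library 8 fell between the p53-/- libraries for 45. The median difference between the p53+/+ libraries was thus larger than the median difference between genotypes. Leaving out library 7 turned the median of the members to 0.10, and leaving out library 8 took it to −0.29. Between library 7 and library 8 the members of at least 10 CPM showed no order by exon length, with medians of 0.42, 0.45 and 0.42 in the shortest, middle and longest 28 of 84. Between library 10 and library 9 the medians were 0.24, 0.29 and 0.14. Over all tested genes of the same level and lengths the medians were 0.36, 0.30 and 0.16 for library 7 against 8, and 0.29, 0.12 and −0.04 for library 10 against 9. The part of length in the differences between libraries was not tested.

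**Figure D2:**
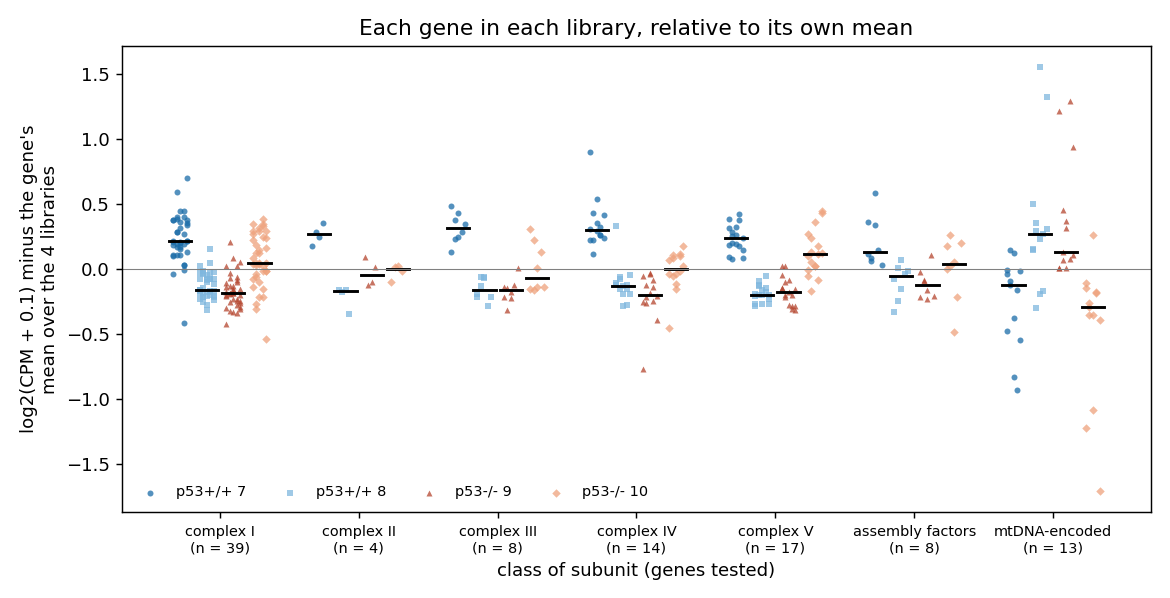
Each tested gene's log2(CPM + 0.1) minus its mean over the 4 libraries, by library (colour and symbol) and class of subunit, with the class median as a black line. Library 7 has the highest median in all 6 nuclear classes, from 0.13 to 0.31, while among mtDNA-encoded genes library 8 is highest with 0.27.

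Complex I, which takes electrons from NADH, had 41 members, of which 39 were tested. Their summed level was 2803, 2130, 2106 and 2468 CPM in libraries 7, 8, 9 and 10, and the genotypes overlapped. The median log2 fold change was −0.08, with 13 positive and 26 negative. The 7 nuclear core subunits, which carry the flavin and iron-sulfur clusters or bind quinone, had log2 fold changes from −0.24 (Ndufs3) to 0.23 (Ndufs8). Ndufv1, the NADH-binding flavoprotein, had 150, 111, 118 and 119 CPM in libraries 7 to 10, and its partner Ndufv2 had 114, 85.9, 90.2 and 109. Ndufs1, which holds several iron-sulfur clusters, had 99.2, 73.6, 94.4 and 91.4 CPM, and in these 3 genes the highest and the lowest library were both p53+/+. Ndufs7, next to the quinone site, had 118, 81.0, 77.0 and 93.9 CPM, with library 9 the lowest. Ndufs8, a carrier of 2 iron-sulfur clusters, had 64.5, 59.3, 60.4 and 84.5 CPM, where library 10 stood apart from the other 3, and its log2 fold change of 0.23 ± 0.21 (SE) had an adjusted p of 0.640.

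The lowest log2 fold changes of complex I were those of Ndufb6 and Ndufb4, accessory subunits of the membrane arm, and of Ndufb4c. Ndufb4c, at −0.58 ± 0.65 (SE), had only 23, 11, 20 and 11 counts in libraries 7 to 10. Ndufb6 had 56.6 and 36.8 CPM in libraries 7 and 8 and 31.5 and 30.3 in libraries 9 and 10, which gave a log2 fold change of −0.59 ± 0.24 (SE) and an adjusted p of 0.283 in edgeR (0.0522 unadjusted). Ndufb4 had 48.1 and 36.5 CPM against 29.2 and 30.4, and its log2 fold change was −0.50, with an interval of −0.995 to −0.012 and an adjusted p of 0.269. In both genes the genotypes did not overlap, but library 8 lay nearer to the p53-/- libraries than to library 7. Ndufb3, Ndufb8 and Ndufs6 also had both p53-/- values below both p53+/+ values. This made 5 such members of the 39 tested in complex I, while 24.4% of all genes tested separated in this way. The highest level per length in complex I was that of Ndufa2, a small accessory subunit, with a mean of 120 CPM per kb of exon, and its CPM was 87.3, 65.6, 50.1 and 71.3. The highest log2 fold change, 0.28 ± 0.63 (SE), belonged to Ndufs6b, a copy related to Ndufs6 with only 8, 12, 15 and 18 counts, and so rests on very few reads.

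Complex II, succinate dehydrogenase, is shared between the citric acid cycle and the respiratory chain. Its 4 genes summed to 1061 and 776 CPM in libraries 7 and 8 and 895 and 869 in libraries 9 and 10, so the p53-/- libraries fell between the p53+/+ libraries. Sdha, the flavoprotein, had 423, 334, 398 and 349 CPM. Sdhb had 206, 150, 156 and 171, Sdhc 183, 138, 144 and 156, and Sdhd 249, 153, 197 and 193, the last 2 being membrane anchors. For each of the 4 genes library 7 was the highest and library 8 the lowest. Sdhb had the lowest log2 fold change of the complex, −0.13 ± 0.22 (SE), and Sdha the highest, −0.02 ± 0.22, with adjusted p values of 0.822 and 0.978 from the quasi-likelihood fit. Per kb of exon Sdhd was the most abundant, at a mean of 161 CPM per kb.

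Complex III, which passes electrons from ubiquinol to cytochrome c, had the lowest class median, −0.17 over 8 members, of which 7 were negative. Its summed level was 1875, 1318, 1335 and 1497 CPM, and library 7 again stood above the other 3. Uqcrc1 and Uqcrc2, the large core proteins, had 411, 278, 310 and 370 CPM and 278, 188, 219 and 198 CPM. In both the p53-/- libraries lay within the p53+/+ pair. Uqcrfs1, the Rieske iron-sulfur protein, had 335 and 210 CPM in p53+/+ and 218 and 215 in p53-/-, with a log2 fold change of −0.33 ± 0.27 (SE) and an adjusted p of 0.589. Here library 8 was the lowest of all 4, and without library 7 the log2 fold change became 0.05. Uqcrq, a small subunit, had 314 and 224 CPM against 200 and 212, a log2 fold change of −0.39 ± 0.23 with an adjusted p of 0.451. Uqcrq and Uqcr11 were the 2 of 8 members of complex III whose genotypes did not overlap, close to the 24.4% of all genes tested with both p53-/- libraries lower. Uqcr10, the most abundant per length (186 CPM per kb), had 117, 92.4, 92.4 and 133 CPM, and its log2 fold change of 0.10 ± 0.24 was the only positive one of the complex.

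Complex V summed to 6311, 4702, 5026 and 5290 CPM in libraries 7 to 10 over 18 members, and its median log2 fold change was −0.06 over 17 tested. The catalytic F1 head is built from alpha and beta subunits around gamma. Atp5b (beta) had 1887, 1411, 1575 and 1374 CPM, and a log2 fold change of −0.16 ± 0.29 (SE) with an adjusted p of 0.827. Atp5a1 (alpha) had 1363, 1051, 1218 and 1190 CPM and the highest level per length in the complex, 384 CPM per kb. Atp5c1 (gamma) had 337, 245, 265 and 286 CPM. In Atp5a1 and Atp5c1 library 8 was the lowest and library 7 the highest, and in Atp5b library 10 was slightly below library 8. The proton-carrying c ring is encoded by 3 genes for the same mature protein. Atp5g3 had 492, 351, 347 and 398 CPM, Atp5g1 had 157, 98.8, 116 and 116, and Atp5g2 had 111, 89.1, 84.2 and 106. Their log2 fold changes ran from −0.18 to −0.08. Atp5d (delta), in the central stalk, had 493 and 354 CPM against 302 and 347. It was the 1 member of 17 tested whose genotypes did not overlap, while 24.4% of all genes tested had both p53-/- libraries lower. The log2 fold change of Atp5d was −0.38 ± 0.24, with an adjusted p of 0.487 in edgeR. Atp5e (epsilon), its partner in the stalk, had 135, 108, 104 and 172 CPM, so that library 10 alone was high, and a log2 fold change of 0.18 ± 0.28 with an adjusted p of 0.802. Without library 10 that value was −0.17.

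Complex IV, cytochrome c oxidase, showed a negative log2 fold change in all 14 tested of 21 members, with a median of −0.14. The sum over the complex was nevertheless 3261 and 2429 CPM in p53+/+ and 2385 and 2713 in p53-/-, so the genotypes overlapped. The direction was not stable, because without library 7 the median was 0.03 and without library 8 it was −0.36. The most abundant member per length was Cox6a1, at 665 CPM per kb, with 555, 418, 437 and 459 CPM. Cox4i1, the regulatory subunit that binds nucleotides, had 639, 480, 433 and 544 CPM, and Cox8a had 411, 306, 326 and 308. Cox6c, with the highest log2 fold change of the complex (−0.04 ± 0.18), had 171, 149, 145 and 167 CPM, and its sign turned under several scalings. Cox7a2l, which links complexes III and IV into supercomplexes, had 179 and 130 CPM against 102 and 136, with a log2 fold change of −0.38 and an adjusted p of 0.500. Ndufa4, counted here with complex IV, had 153, 118, 108 and 138 CPM, and Cox7b had 149, 117, 123 and 124.

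Several complex IV subunits exist as a ubiquitous form and a form restricted to muscle, testis or hypoxic cells. The SI expressed mostly the ubiquitous forms. Cox4i2, Cox6a2, Cox8b and Ndufa4l2 had at most 16 counts in any library, and Cox7b2 and Cox8c had none. With 0 counts, up to 3 counts in a library remain possible. Cox8b, a heart and skeletal muscle form, had 15 counts in library 8, 1 in library 10 and 0 in the others. Cox7a1, the muscle form of Cox7a, was the better expressed exception, at 24.3, 14.7, 14.7 and 15.02 CPM. Only library 7 stood above the rest, the log2 fold change was −0.39 ± 0.31 with an adjusted p of 0.578, and without library 7 it was 0.03. Its ratio to Cox7a2 in CPM, without correction for exon length, was 0.172, 0.156, 0.142 and 0.124 in libraries 7 to 10. Per kb of exon Cox7a1 had 45.5, 27.4, 27.4 and 28.1 CPM, against 150, 99.3, 109 and 129 for the longer Cox7a2.

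Cox6b2 had the largest genotype difference of all members. It had 274 and 176 counts (16.96 and 11.4 CPM) in p53+/+ libraries 7 and 8, and 120 and 132 counts (5.26 and 6.57 CPM) in p53-/- libraries 9 and 10, so both p53-/- libraries were below both p53+/+ libraries. The log2 fold change was −1.26 ± 0.34 (SE), with a 95% interval of −2.12 to −0.40, and edgeR put p at 0.0122 before and 0.163 after adjustment. DESeq2 gave an adjusted p of 0.0305, the fit without library 8 gave 0.0456, and over all alternatives the adjusted p ran from 0.0302 to 0.644, so the call rests on the method and the libraries used. Its ubiquitous counterpart Cox6b1 had 240, 178, 176 and 231 CPM, and the ratio of Cox6b2 to Cox6b1 was 0.0706 and 0.0640 in p53+/+ against 0.0298 and 0.0285 in p53-/-. Within each genotype this ratio differed by less than between genotypes. Both genes lie on chromosome 7, and their promoters, printed above, differ in the ETS letters. CGGAAG was in 35.4% of the members' windows and 13.6% of all windows. The part of these letters in the levels was not tested. Exons of Cox6b2 overlapped no other annotated gene in GENCODE M21.

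**Figure D3:**
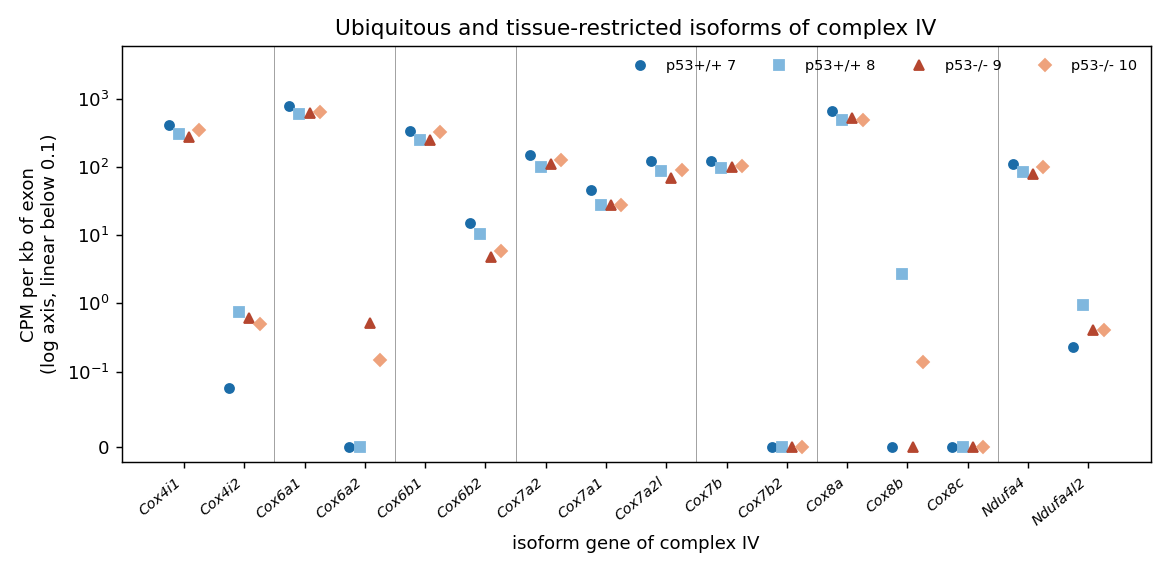
Level of complex IV isoform genes in CPM per kb of exon (log axis, linear below 0.1) in each library, with families separated by lines. Cox6a1 and Cox8a lie highest, the restricted isoforms lie below 3 except Cox7a1 and Cox6b2, and only in Cox6b2 do both p53-/- libraries sit below both p53+/+ libraries.

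The 8 Ndufaf genes encode factors that assemble complex I and are not part of it. They were expressed at 121 CPM in all in library 7 and 92.7 to 94.5 in the other 3, and their median log2 fold change was −0.07. Ndufaf8, which helps Ndufaf5 modify a core subunit, had 35.1 and 24.5 CPM against 20.9 and 16.7, with a log2 fold change of −0.66 ± 0.26 (SE) and an adjusted p of 0.274 (0.0478 unadjusted). It was the most abundant of the 8 per length (29.1 CPM per kb) and the only one whose genotypes did not overlap. Ndufaf2 had the highest log2 fold change, 0.17 ± 0.33, at 8.66, 6.88, 7.67 and 9.85 CPM. Among assembly factors not covered by the names, 43 of 45 were tested, none passed the adjusted threshold and the median was −0.05, with 7 genes separated as higher and 11 as lower in p53-/-, where 26.4% and 24.4% of all genes were. Higd1a, a hypoxia-induced regulator of complex IV, was the lowest, at 69.2 and 48.1 CPM against 28.0 and 25.7, with a log2 fold change of −1.13 ± 0.22 and an adjusted p of 0.105 (0.0172 without library 8 and 0.0931 to 0.594 without any other, and 0.00158 with DESeq2). Acad9, which assembles complex I, had 25.1 and 22.1 CPM against 36.7 and 38.6, a log2 fold change of 0.67 ± 0.17 with an adjusted p of 0.153. Sco2 had 0 counts in all 4 libraries of this table, so no comparison could be made for it.

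The 13 subunits encoded by mtDNA ran against the nuclear genes from library to library. They summed to 21019 and 24458 CPM in p53+/+ libraries 7 and 8 and to 21329 and 16789 in p53-/- libraries 9 and 10. Library 7, the highest for nuclear subunits, was above library 8 for 1 of 13 mtDNA genes, with a median difference of −0.38, and library 10 was above library 9 for 0 of 13, with a median of −0.48. The ratio of the nuclear members to the mtDNA-encoded subunits was therefore 0.734 and 0.468 in p53+/+ and 0.555 and 0.770 in p53-/-, with overlapping genotypes. mt-Co1, the catalytic subunit of complex IV, had 11175, 12069, 10355 and 8060 CPM, with both p53-/- values below both p53+/+ values, and a log2 fold change of −0.34 ± 0.42 with an adjusted p of 0.743. mt-Cytb, the core of complex III, had 3075, 4012, 3449 and 2746 CPM. None of the 13 passed the adjusted threshold, and the median log2 fold change was −0.14. mt-Co2, mt-Co3 and mt-Atp6 had no more than 128 CPM in any library, and reads shared with near-identical nuclear copies could have been left out of their counts, so their levels are uncertain.

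The level of the OXPHOS genes can also be set against that of the epithelial markers. All 13 epithelial markers had a negative log2 fold change (median −0.46), 10 of them with both p53-/- libraries below both p53+/+ libraries (24.4% of all genes), and none passed the adjusted threshold. Their sum was 27441 and 19839 CPM in p53+/+ and 18443 and 15350 in p53-/-. Relative to it the nuclear OXPHOS genes stood at 0.562 and 0.577 in libraries 7 and 8 and at 0.642 and 0.842 in libraries 9 and 10. On this scale, chosen after seeing the data, both p53-/- libraries were above both p53+/+ libraries and the median of the members was 0.38 instead of −0.09. This separation was not seen against the enterocyte markers, which summed to 35960 and 35626 CPM in p53+/+ and 28554 and 23296 in p53-/-. Relative to that sum, library 7 (15433 CPM of members) stood above library 9 (11839 CPM), so the genotypes overlapped. The median log2 fold change was −0.61 for enterocyte markers. For proliferation genes it was 1.13, with summed levels of 598 and 378 CPM in p53+/+ against 963 and 1102 in p53-/-. T cell markers summed to 9.78 and 17.6 CPM against 89.1 and 183. Adipocyte markers of white fat summed to 237 and 239 CPM against 88.0 and 92.5, and 2 of 11 tested passed the adjusted threshold as lower, Cfd (175 and 244 counts against 0 and 1) and Car3 (198 and 342 counts against 5 and 5). Adipoq, the hormone of fat cells, had 40, 51, 0 and 3 counts in libraries 7 to 10. Ucp1, the uncoupling protein that defines brown fat, had 3, 1, 0 and 0 counts. Ckm, a kinase of striated muscle, had 23, 165, 68 and 39 counts in libraries 7 to 10. The sum of the 12 striated muscle markers did not follow Ckm, with 56.5 and 50.02 CPM in p53+/+ against 112 and 67.9 in p53-/-. Only 2 of the 12 were tested, with log2 fold changes of −1.30 and 0.90. The part of cell composition in the levels of the members was not tested.

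**Figure D4:**
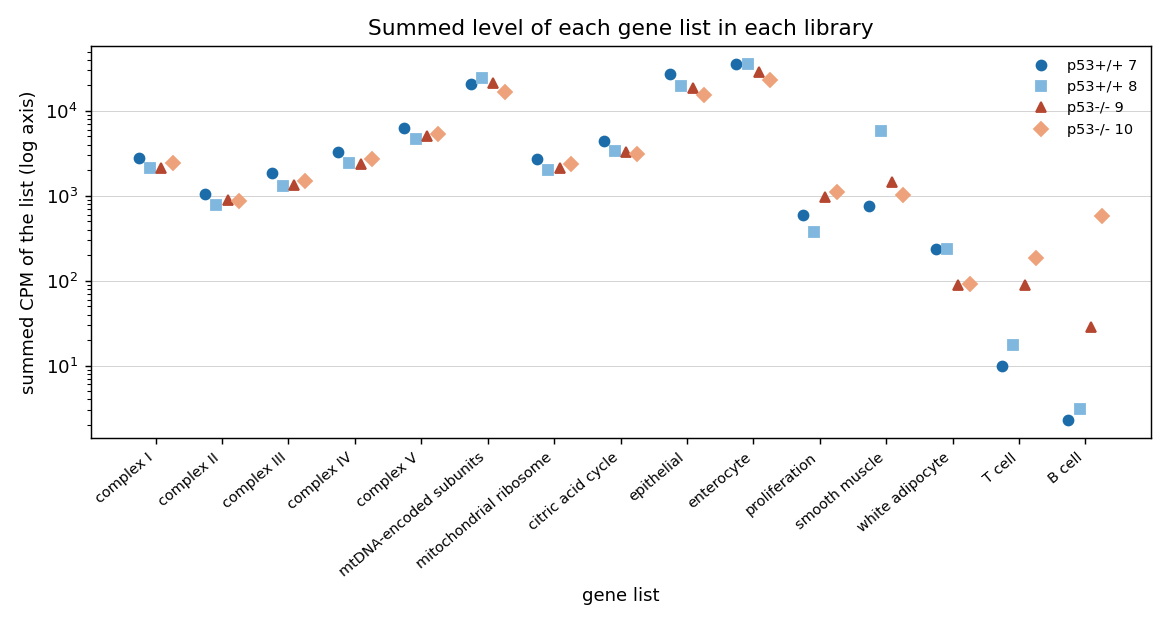
Summed CPM (log axis) of the nuclear OXPHOS classes, related mitochondrial lists and cell type marker lists in each library. Complexes I to V differ little between genotypes, smooth muscle markers stand out in library 8 (5842 CPM), and B cell markers in library 10 (580 CPM).

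Known regulators of mitochondrial gene expression held no called gene. Of 20 biogenesis regulators tested, 10 had a positive and 10 a negative log2 fold change and none passed the adjusted threshold. Ppargc1a, the coactivator PGC-1 alpha, had 36.9 and 19.2 CPM in p53+/+ against 12.4 and 13.9 in p53-/-. Its log2 fold change was −1.10 ± 0.35 (SE) with an adjusted p of 0.208. Without library 7 it was −0.54 (adjusted p = 0.365), and the adjusted p was 0.0268 without library 8, 0.519 without library 9 and 0.753 without library 10. Esrra, a nuclear receptor that works with it, had 435 and 355 CPM against 301 and 247, and Ppara 29.3 and 23.9 against 14.8 and 11.8. Pprc1, a related coactivator, had 28.7 and 23.0 CPM against 39.1 and 35.3, and Esrrg, the highest of the list at a log2 fold change of 1.90, was below 5 CPM in all libraries. Nrf1 itself had 33.8, 27.1, 24.3 and 26.8 CPM, and Tfam, which packages and transcribes mtDNA, had 35.7, 25.6, 34.7 and 43.6. In all, 4 of the 20 had both p53-/- libraries above both p53+/+ libraries and 5 had them below, against 26.4% and 24.4% of all genes. Ppargc1a, Esrra, Ppara and Nrf1 were among the latter, Pprc1 and Esrrg among the former, and Tfam overlapped.

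The citric acid cycle held no called gene, and a list of p53 targets of energy metabolism held 1. Of the electron carriers, Cyc1, the cytochrome c1 of complex III, had 350, 241, 281 and 281 CPM, and Cycs, cytochrome c, had 310, 180, 219 and 206 CPM, and neither passed the adjusted threshold. For the citric acid cycle the median was −0.20, and 0 of 16 genes passed. Citrate synthase (Cs), the entry enzyme of the cycle, was its lowest gene, with 956 and 698 CPM against 559 and 492, a log2 fold change of −0.65 ± 0.26 and an adjusted p of 0.274 (0.0364 with DESeq2, and 0.122 to 0.886 with 1 library left out). Without library 7 its log2 fold change was −0.40. Among 13 tested p53 targets of energy metabolism, 1 passed the threshold as lower in p53-/-, where 0.193% of all genes tested did. Sesn2, a stress-induced inhibitor of mTORC1, had 54.2 and 52.6 CPM in p53+/+ and 16.7 and 12.6 in p53-/-, and fell by 1.86 on the log2 scale with an adjusted p of 0.0444. The adjusted p was 0.0698 without library 9 and 0.322 without library 10, and it was between 0.0572 and 0.0668 with library sizes alone, upper-quartile factors, at least 10 counts in every library or the 50 most abundant genes left out. Ddit4, another inhibitor of mTORC1, had 54.7 and 58.5 CPM against 25.9 and 29.5, with an adjusted p of 0.0698.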

How the data were processed

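RNA of the SI was extracted with an RNeasy kit, poly-A selected and sequenced at Novogene. The deposited values are raw read counts per gene (Ensembl identifier and symbol), made by the authors' provider. The submitters' processing notes name fastp, HISAT2 2.0.5, featureCounts 1.5.0-p3 and DESeq2 1.20.0. The genome build, the annotation and the strand setting are not given in the sources used here. Counting that leaves out reads with several matches would lose genes with near-identical copies, and without a stated strand reads of overlapping genes cannot be told apart, which touches 32 tested members with an exon that overlaps another gene. Of the 15 left-out names with -ps, 9 had counts, up to 496 in a library.

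Column names give the genotype but not the replicate number of the labels. Within each genotype the counts of both libraries were further apart than sampling allows (chi-square per degree of freedom of 48.0 and 69.5), so each was kept as a replicate. All 56748 genes entered 1 fit in edgeR 4.0.16 (R 4.3.3) with filterByExpr, TMM factors, glmQLFit and glmQLFTest, two-sided, with Benjamini-Hochberg adjustment over 16094 genes and a threshold of 0.05. CPM values use TMM-scaled library sizes, and CPM per kb uses the exon union in GENCODE M21. DESeq2 1.42.0 and the likelihood ratio test of edgeR were alternatives. The scripts were tested on simulated data. An exact two-sided permutation test with 2 against 2 libraries cannot go below p = 0.333, so none is given. Medians over a class carry no test.

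Members and lists were chosen with earlier results of these data known. Genes were named by a rule: members past the threshold; the highest and lowest log2 fold change and highest level per length in each class; the catalytic or core subunits; the paired isoforms; and genes of other lists, of which fewer are given than the rule allows. Ndufb3, Ndufb4, Ndufb4c, Ndufb8, Ndufs6, Uqcr11, Phlda3, Acad9, Esrra, Ppara, Pprc1, Nrf1, Tfam, Cyc1, Cycs, Ddit4, Ldha and the mtDNA genes were added after their values were seen. The values of 1 gene that the rule names are not reported here. Figures were drawn with matplotlib 3.10.9.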

Additional observations from a re-analysis of the deposited data

How the results depend on the processing

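Over all genes, 48 were higher and 31 lower in p53-/- at the threshold. Library sizes alone gave 26 and 20, upper-quartile factors gave 29 and 20, and the counts were with DESeq2 812 and 663, with the likelihood ratio test 833 and 462, with no filter on low counts 1433 and 761, and with at least 10 counts in every library 24 and 18. At a threshold of 0.01 they were 4 and 2, and at 0.1 they were 238 and 134. Leaving out 1 library gave 0 to 680 higher and 0 to 344 lower genes, and without library 10 there were 0. The number of members called higher was 0 in every alternative run. The number called lower was 0, except 1 (Cox6b2) with DESeq2, 1 with no filter, and 0 to 1 when a library was left out (1 without library 8). With no filter the median of all genes tested moved to 0.15, and in the other alternatives it stayed between −0.02 and 0.06. With library sizes only, 3 members in place of 0 had both p53-/- libraries above both p53+/+ libraries.

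Relative to the summed epithelial markers, an alternative chosen after seeing the data, the median of all members was 0.38, and by class 0.39 (complex I), 0.40 (II), 0.30 (III), 0.33 (IV), 0.41 (V) and 0.40 (assembly factors). With 1 library left out, the median of complex IV ran from −0.36 to 0.033 and that of the mtDNA-encoded subunits from −0.31 to 0.044. In every other alternative the class medians moved by less than the SD between libraries. With 1 library left out this limit is hardly ever passed, because the SD comes from the same libraries, so it is no measure of stability there. Without library 7 the medians of complexes I, II, III and V and of the assembly factors turned positive (0.10, 0.15, 0.083, 0.19 and 0.054). That of complex V also turned positive without library 9 (0.045). With library sizes alone or at least 10 counts in every library, the medians of complex II (0.0082 and 0.0083), complex V (0.012 and 0.013) and the assembly factors (0.0074 and 0.0088) were just above 0.

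The sign of small log2 fold changes turned. Sdha was 0.056 and Cox6c 0.032 with library sizes alone, 0.037 and 0.016 under upper-quartile scaling, 0.028 and 0.0050 with no filter, 0.057 and 0.035 with at least 10 counts in every library, and 0.027 and 0.0050 with the 50 most abundant genes left out. With 1 library left out, the log2 fold change ran for Sdha from −0.18 to 0.17, Sdhb from −0.34 to 0.13, Uqcr10 from −0.13 to 0.33, Uqcrfs1 from −0.64 to 0.052, Cox6c from −0.14 to 0.069, Cox7a1 from −0.72 to 0.027, Atp5e from −0.17 to 0.49 and Atp5b from −0.36 to 0.072. A lone library was assumed to vary like those of the other genotype. The cause was not tested. No paired analysis was possible because the columns do not carry the replicate numbers of the labels. With 2 libraries a genotype, precision is limited by the spread between libraries more than by depth.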

Other observations

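The mitochondrial ribosome, whose proteins are nuclear and whose products are the mtDNA-encoded subunits, was also without called genes. The log2 fold changes of its 77 tested genes had a median of −0.07, and their levels summed to 2719, 2028, 2102 and 2383 CPM in libraries 7, 8, 9 and 10, with library 7 above library 8 for 76 of 77 and library 10 above library 9 for 62. The threshold was that of the quasi-likelihood test of edgeR. The genotypes did not overlap for 7 genes that were higher and 11 that were lower in p53-/-, while 26.4% and 24.4% of all genes separated in these ways.

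Genes of mitochondrial import and of the mitochondrial membranes had a median of −0.22 over 25 tested. Slc25a4, the ADP/ATP carrier that delivers the ATP made by complex V to the cytosol, was the lowest, at 91.5 and 164 CPM in p53+/+ against 48.6 and 50.5 in p53-/-, with a log2 fold change of −1.37 ± 0.30 (SE) and an adjusted p of 0.119 (0.000892 with DESeq2, 0.0125 without library 7, 0.0419 without library 8, 0.326 without library 9 and 0.644 without library 10). The p53+/+ values were higher in library 8, the library with the most smooth muscle RNA. The part of smooth muscle in this difference was not tested.

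The median over 21 tested genes of glycolysis and hypoxia was −0.44, with 18 of them negative and none past the adjusted threshold. Ldha, lactate dehydrogenase A, had 2196, 1237, 1325 and 1368 CPM. Hk2, a hexokinase that starts glycolysis, was the highest of the list, with 153 and 84.5 CPM against 274 and 182, and Pdk4, which restrains entry of pyruvate into the citric acid cycle, the lowest, with 10.3 and 18.9 CPM against 4.08 and 7.81. Their adjusted p values were 0.259 and 0.249.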
